A study of Mus musculus with 6 samples.

Results

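The genes described here are 10 genes of the contractile thin filament of skeletal muscle, taken by name from the 24062 gene symbols in the count table. They are Acta1, Tpm1, Tpm2, Tpm3, Tnnc1, Tnnc2, Tnni1, Tnni2, Tnnt1 and Tnnt3. Of the 10 genes, 8 passed the filter on low counts and were among the 1682 genes tested, and Tnnc1 and Tnni1 had too few counts. No gene of the set passed the test between E2-treated and vehicle-treated mice at an adjusted p below 0.05. The log2 fold change was above 0 for 2 of the 8 tested genes, Tnnc2 and Acta1, and below 0 for 6, beside 846 and 836 of all genes tested. Tpm3 and Tnnt1, among the 6, turned above 0 when vehicle replicates 1 and 2 were left out.

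The thin filament is a polymer of actin along which tropomyosin lies, and troponin sits on the tropomyosin. In the troponin complex, troponin C binds calcium, troponin I holds back contraction at rest, and troponin T anchors the complex to tropomyosin. Fast and slow muscle fibers use different genes for the troponin subunits, so that the gene pairs Tnnc2 and Tnnc1, Tnni2 and Tnni1, and Tnnt3 and Tnnt1 are widely read as fast and slow partners. Gastrocnemius of the mouse is mainly a fast muscle, and soleus is rich in slow fibers.

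TRAPseq, in which RNA is sequenced from ribosomes that carry a tag, was done on gastrocnemius and soleus of GFP-L10aEC mice, in which VECad-Cre releases a floxed stop in front of a GFP-L10a fusion at the Rosa26 locus. The tag is thereby placed in endothelial cells, the cells that line blood vessels, and anti-GFP antibody retrieves their ribosomes. In both groups the genotype label opens with B6.129S4-Gt(ROSA)26Sorfm1 and names an insert of CAG-EGFP/Rpl10a with birA. All mice were ovariectomized females by the study's methods, and they carried either placebo pellets (vehicle, 3 libraries) or 17Beta-estradiol pellets (E2, 3 libraries) for 4 weeks. The methods place ovariectomy at 6 weeks of age, whereas the labels give mice of 4 weeks. Each library carries the numbers of 2 mice, and no source used here says whether these were pooled. The study's methods give more biological replicates per group than there are libraries, and the replicate here is the library. As nothing ties the libraries to separate pools of animals beyond these numbers, p-values measure the spread between the libraries, which may in part be technical.

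The libraries held between 84823 and 451034 counts, with the fewest in vehicle replicate 3, and Rn45s, a ribosomal RNA precursor, took 28.5% to 42.9% of them. A count of 0 allows up to 3 counts, which is 6.65 CPM (counts scaled to a common library total) in the deepest library and 35.4 CPM in the shallowest, for counting error only. In log2 CPM over the genes tested, vehicle replicates 1 and 2 resembled each other (r = 0.957, across genes, which are not independent replicates) more than either resembled vehicle replicate 3 (r = 0.63 and 0.634). Vehicle replicate 3 was closer to the E2 libraries (r = 0.824, 0.815 and 0.735) than to its own group. Vehicle replicates 1 and 2 held 40 and 63 counts of 4 Y-linked genes, against 0 in each of the other 4 libraries, which goes against their description as ovariectomized females, and their Xist level was 3.46 and 2.22 CPM, against 35.4 to 85.6 CPM in the others. They also held 370 and 341 CPM of 8 pancreatic acinar genes, against 4.97 to 23.8 CPM elsewhere. Fold changes and ratios were therefore also computed without these libraries, which leaves vehicle replicate 3 as the only vehicle library. Of 18 endothelial markers all had a count, and their summed level was 1521 to 6478 CPM in the vehicle libraries and 961 to 2373 CPM in the E2 libraries, most of it from Cd36. The summed level of 15 muscle fiber genes outside the set was 53676 to 91466 CPM with vehicle and 40769 to 48837 CPM with E2. Counts of these genes thus far outnumbered those of the endothelial markers, in sums that are not scaled by gene length. In RNA retrieved from whole muscle, fewer fibers, less RNA per fiber and less carry-over into the pulldown cannot be told apart. The study's own qPCR found RNA of myocyte genes enriched in whole muscle but not in the retrieved RNA.

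The summed level of the 10 thin filament genes was 38368, 30517 and 31925 CPM in vehicle replicates 1 to 3 and 43611, 56171 and 36481 CPM in E2 replicates 1 to 3. The groups overlapped, with a mean of 3.36% ± 0.419 of all counts with vehicle and 4.54% ± 0.997 with E2 (SD, n = 3 per group). Much of this sum came from a single gene, Tnnc2. Without it, the other 9 genes together took 25052, 18726 and 11719 CPM with vehicle and 10061, 11630 and 6731 CPM with E2. The E2 libraries all lay below the vehicle libraries in this smaller sum, by a narrow margin between vehicle replicate 3 and E2 replicate 2. The sum of the 15 other muscle fiber genes likewise lay lower with E2 in every library, and the share of that RNA in the values of the set was not tested.

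Among the genes compared per kilobase of exon, Tnnc2 had the highest level in both groups, at 18880 ± 5605 CPM per kilobase with vehicle and 44934 ± 9602 with E2 (SD, n = 3 per group). Next with vehicle came Tnnt3 at 3625 and Tpm2 at 2355 CPM per kilobase, whose libraries overlapped. Tnnt1 at 605, Tpm1 at 537, Acta1 at 421 and Tnni2 at 224 CPM per kilobase followed, each overlapping its neighbor in the order. Tpm3 at 17.6, Tnnc1 at 7.01 and Tnni1 at 0 CPM per kilobase closed the order and their libraries did not reach those of the gene above, although Tnnc1 and Tnni1 were both at or under the floor of 3 counts. With E2, Acta1 stood between Tnnt3 at 1458 and Tpm2 at 879 CPM per kilobase, at a mean of 1322, and its libraries overlapped with both. The gaps between Tnnc2 and Tnnt3, between Tpm2 and Tnnt1, and between Tnni2 and Tpm3 were seen in each group. The order thus ran, in both groups, from the fast troponin C gene at the top to the slow troponin C and I genes at the bottom.

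**Figure D1:**
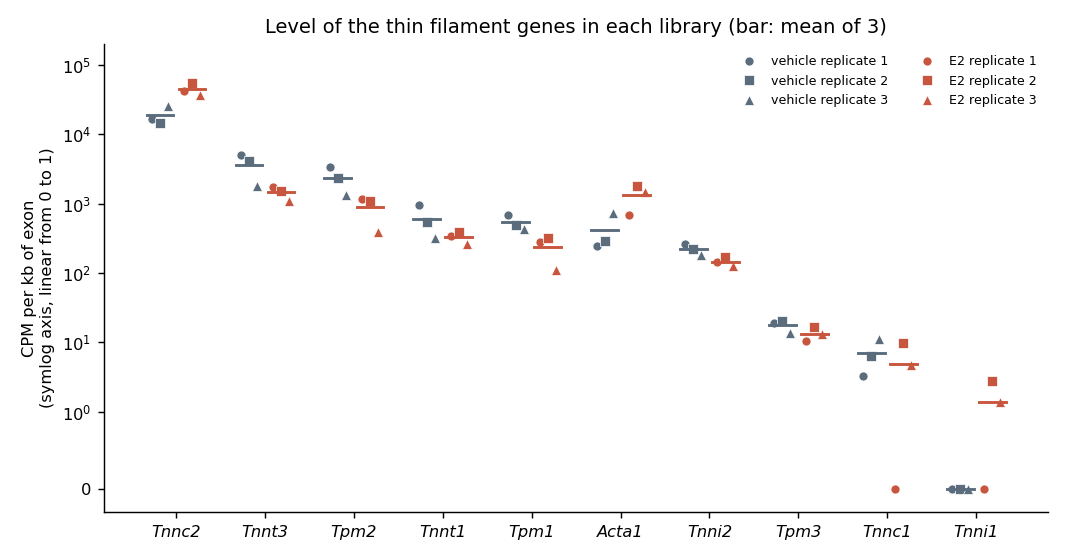
The vertical axis is the level of each gene in CPM per kilobase of exon, logarithmic above 1 and linear below it, with 1 point for each library and a bar at the mean of the 3 libraries of a group. The 3 E2 points of Tnnc2 sit between 37187 and 55676, above all vehicle points, and those of Tpm1, Tpm2, Tnni2 and Tnnt3 sit below all vehicle points.

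Tnnc2 encodes fast skeletal troponin C, the calcium sensor of the fast troponin complex, and lies on the minus strand at chr2:164777161-164779967 (mm10, GENCODE). Its level was 13315, 11791 and 20207 CPM in vehicle replicates 1 to 3 and 33550, 44541 and 29750 CPM in E2 replicates 1 to 3. The E2 values were all higher than the vehicle values, and vehicle replicate 3 was the highest of its group. On the log2 scale the fold change was 1.35 (SE 0.41, unadjusted p = 0.0036, adjusted p = 0.0572 by edgeR's quasi-likelihood test), just short of the threshold. Without vehicle replicate 3 the value was 1.74 (adjusted p = 0.00042 by edgeR's quasi-likelihood test). Without both vehicle replicates 1 and 2 it was 0.92 (adjusted p = 0.584 by the same edgeR test). The exons of Tnnc2 share 592 bases, 74.0% of its 800 exon bases, with Ube2c on the opposite strand. Ube2c itself held 6 counts in all libraries together. No source used here says whether reads were counted by strand, and without strand, reads of Tnnc2 and of an RNA from the opposite strand cannot be told apart.

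Tnnc1 encodes the troponin C of slow and cardiac muscle and lies at chr14:31208312-31211729 on the plus strand. It had 1, 3 and 1 counts in vehicle replicates 1 to 3 and 0, 2 and 1 counts in E2 replicates 1 to 3. Its values were at or under the floor of 3 counts in all 6 libraries, and no fold change is given. The stretch before its RefSeq start (GRCm38.p6, the mm10 assembly) is shown because troponin C had the widest gap between the fast and the slow gene. Capitals mark 2 E-boxes (CANNTG, the core bound by myogenic factors) and an MCAT element (CATTCC, the core bound by TEAD factors), which is read here on the opposite strand, and the stretch is chr14:31208062-31208311 on the plus strand.
Tnnc1: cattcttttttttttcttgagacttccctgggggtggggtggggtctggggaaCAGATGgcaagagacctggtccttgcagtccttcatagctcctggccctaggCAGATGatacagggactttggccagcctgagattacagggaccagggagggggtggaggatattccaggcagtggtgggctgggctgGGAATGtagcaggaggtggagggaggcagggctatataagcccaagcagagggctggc

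Tnni2 encodes the fast troponin I and lies at chr7:142441808-142444410 on the plus strand. It was present at 398, 335 and 271 CPM with vehicle and at 214, 252 and 189 CPM with E2. All E2 values lay below all vehicle values, but the nearest of them, 271 CPM in vehicle replicate 3 and 252 CPM in E2 replicate 2, rested on 23 and 50 counts. edgeR gave a log2 fold change of -0.51 (SE 0.43, adjusted p = 0.477 by edgeR's quasi-likelihood test), and -0.22 without both vehicle replicates 1 and 2. Tnni1, its slow partner at chr1:135779434-135810989 on the plus strand, had 0 counts in all 3 vehicle libraries and 0, 2 and 1 counts with E2. Its count of 0 allows up to 6.65 CPM in vehicle replicate 2 and up to 35.4 CPM in vehicle replicate 3, at the floor of 3 counts. A difference in Tnni1 was not detectable at this depth. The stretch before a RefSeq start of Tnni1, chr1:135799171-135799401 on the plus strand, is shown for comparison with that of Tnnc1, with E-boxes in capitals.
Tnni1: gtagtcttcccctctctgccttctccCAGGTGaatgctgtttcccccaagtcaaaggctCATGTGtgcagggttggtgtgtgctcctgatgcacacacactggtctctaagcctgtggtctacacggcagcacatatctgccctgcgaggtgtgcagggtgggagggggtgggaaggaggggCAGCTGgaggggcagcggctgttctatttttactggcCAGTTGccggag

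Tnnt3 encodes the fast troponin T and lies at chr7:142498836-142516009 on the plus strand, close to Tnni2. Its level was 7890, 6509 and 2818 CPM with vehicle and 2779, 2413 and 1731 CPM with E2. Vehicle replicate 3 and E2 replicate 1 nearly met in CPM, and with the TMM scaling of the fit they crossed, at 3159 and 3296 CPM. The log2 fold change was -1.19 (SE 0.47, unadjusted p = 0.0209, adjusted p = 0.126 by edgeR's quasi-likelihood test). The value without vehicle replicate 3 was -1.41 (adjusted p = 0.00133 by the same edgeR test), and without both vehicle replicates 1 and 2 it was -0.20 (adjusted p = 0.915 by edgeR).

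Tnnt1, the slow troponin T gene at chr7:4504570-4516382 on the minus strand, was the one slow troponin gene with ample counts, 60 to 603 a library. It measured 2088, 1204 and 707 CPM with vehicle and 754, 846 and 567 CPM with E2. Vehicle replicate 3 lay among the E2 libraries. The log2 fold change was -0.78 (SE 0.48, adjusted p = 0.312 by edgeR's quasi-likelihood test). It was -0.97 without vehicle replicate 3 (adjusted p = 0.0177 by the same edgeR test) and -0.31 without vehicle replicate 1, and it turned to 0.12 without both vehicle replicates 1 and 2 (adjusted p = 0.954 by edgeR). The stretch before its RefSeq start, chr7:4516005-4516225 on the minus strand, is printed with its E-box in capitals, since this slow gene was counted where the other slow troponin genes were near 0.
Tnnt1: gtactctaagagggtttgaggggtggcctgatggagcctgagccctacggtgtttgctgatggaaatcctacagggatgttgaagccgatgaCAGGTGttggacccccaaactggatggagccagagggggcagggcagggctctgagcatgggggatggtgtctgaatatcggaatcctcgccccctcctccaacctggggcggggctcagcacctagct

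These stretches hold letters that are common upstream of genes. Among 32851 RefSeq windows of 250 bases, an E-box was found on either strand in 66.22%, and in all 10 windows of the 8 genes of the set that had an entry. The MCAT letters were found in 12.64% of windows. A match of letters is a description and not a bound site.

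Acta1, skeletal muscle alpha-actin, forms the core of the thin filament and lies at chr8:123891769-123894751 on the minus strand. Its level was 381, 439 and 1120 CPM with vehicle and 1048, 2750 and 2293 CPM with E2. The groups overlapped, since vehicle replicate 3 stood just above E2 replicate 1. The log2 fold change was 1.80 (SE 0.54, unadjusted p = 0.0036, adjusted p = 0.0573 by edgeR's quasi-likelihood test), the highest in the set. Without vehicle replicate 3 it was 2.56 (adjusted p = 2.56e-05 by the same edgeR test), and without both vehicle replicates 1 and 2 it was 0.96 (adjusted p = 0.587 by edgeR). The stretch before its RefSeq start, chr8:123894776-123895025 on the minus strand, is shown because it was the one window of the set with a CArG box, the element bound by serum response factor. Capitals mark the CArG box, an MCAT element, the TATA box (TATAAA) and E-boxes.
Acta1: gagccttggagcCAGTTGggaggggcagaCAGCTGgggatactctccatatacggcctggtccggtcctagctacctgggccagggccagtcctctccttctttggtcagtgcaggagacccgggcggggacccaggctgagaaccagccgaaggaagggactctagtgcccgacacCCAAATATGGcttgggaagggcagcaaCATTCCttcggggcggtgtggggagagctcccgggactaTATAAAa

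Among the same windows, a CArG box was found in 1.47% and the TATA box letters in 12.37%. No window of the set held a MEF2 site, which was found in 0.51% of all windows. Tnni2 and Tnnt3 had no entry among the promoter windows.

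Tpm2 encodes beta-tropomyosin, found in fast and slow fibers, and lies at chr4:43514711-43523765 on the minus strand. Its level was 9791, 6884 and 3879 CPM with vehicle and 3383, 3153 and 1139 CPM with E2. The groups were separate, E2 being the lower, with vehicle replicate 3 the nearest to them. E2 over vehicle gave a log2 fold change of -1.34 (SE 0.50, unadjusted p = 0.0141, adjusted p = 0.101 by edgeR's quasi-likelihood test). It was -1.51 without vehicle replicate 3 (adjusted p = 0.00224 by the same edgeR test) and -0.54 without both vehicle replicates 1 and 2 (adjusted p = 0.74 by edgeR).

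Tpm1, at chr9:67022590-67049406 on the minus strand, encodes alpha-tropomyosin, the main form in fast fibers, and also makes nonmuscle products. It stood at 4387, 3224 and 2829 CPM with vehicle and at 1818, 2095 and 721 CPM with E2. The groups did not overlap, and E2 replicate 3 was the lowest of its group by a wide margin. The log2 fold change was -1.10 (SE 0.47, unadjusted p = 0.0306, adjusted p = 0.148 by edgeR's quasi-likelihood test). It was -1.11 without vehicle replicate 3 (adjusted p = 0.0138 by the same edgeR test) and -0.82 without both vehicle replicates 1 and 2 (adjusted p = 0.603 by edgeR). Without E2 replicate 3 it was -0.73. Tpm3, the tropomyosin gene of slow fibers, at chr3:90072649-90100902 on the plus strand, had only 7 to 56 counts a library. Its level was 114, 124 and 82.5 CPM with vehicle and 63.5, 101 and 79.6 CPM with E2, in overlapping groups. The fitted log2 fold change was -0.29 (SE 0.42, adjusted p = 0.703 by edgeR's quasi-likelihood test). Of its 50-base stretches, 23.23% also occur in transcripts of other genes, among them Tpm3-rs7 and pseudogenes, so its counts are uncertain where reads were shared.

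**Figure D2:**
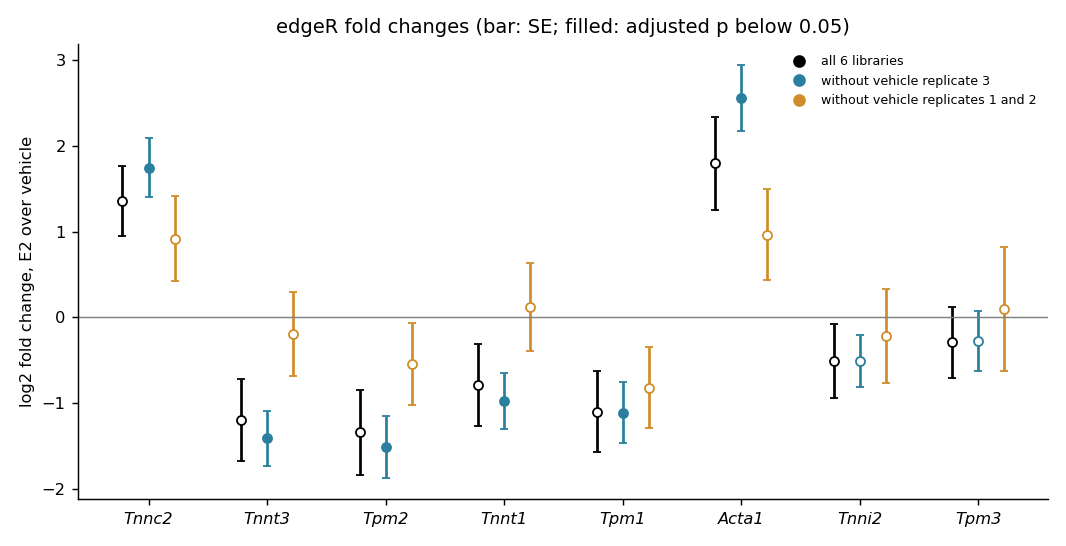
Points are log2 fold changes of E2 over vehicle by edgeR, with SE as bars, for the 8 tested genes in all 6 libraries, without vehicle replicate 3, and without vehicle replicates 1 and 2, and filled points have an adjusted p below 0.05. With all 6 libraries no point is filled, without vehicle replicate 3 the points of Acta1, Tnnc2, Tpm1, Tpm2, Tnnt1 and Tnnt3 are filled, and without vehicle replicates 1 and 2 all points lie nearer to 0 and none is filled.

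Counted together at an adjusted p below 0.05, 0 of the 8 tested genes were higher and 0 were lower with E2 by edgeR's quasi-likelihood test, beside 2.5% and 2.97% of all genes tested. At an unadjusted p of 0.05 or less, 2 were higher (Acta1 and Tnnc2) and 3 were lower (Tpm1, Tpm2 and Tnnt3), beside 10.5% and 15.1% of all genes tested. The count of 3 was 0 when vehicle replicate 1, E2 replicate 2 or E2 replicate 3 was left out, whereas the count of 2 was the same whichever single library was left out. The E2 and vehicle libraries did not overlap for 1 gene that was higher (Tnnc2), beside 8.68% of genes tested. They did not overlap for 4 genes that were lower (Tpm1, Tpm2, Tnni2 and Tnnt3), beside 12.8%. With all 6 libraries, the median log2 fold change of the 8 genes was -0.645, against 0.00539 over all genes tested. Without both vehicle replicates 1 and 2, the fold changes above 0 were 0.96 (Acta1), 0.92 (Tnnc2), 0.12 (Tnnt1) and 0.10 (Tpm3). Those below 0 were -0.82 (Tpm1), -0.54 (Tpm2), -0.22 (Tnni2) and -0.20 (Tnnt3). On CPM with the TMM scaling of the fit, an alternative added after the data were seen, the libraries did not overlap for 1 gene that was higher and 3 that were lower, beside 11.2% and 10.6% of genes tested, and Tnnt3 overlapped.

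By other tests, more of the set passed at an adjusted p below 0.05. More of all genes also passed in each direction by these tests, except that limma-voom called fewer lower. The exact test of edgeR called Acta1 and Tnnc2 higher and 0 of the set lower, beside 4.52% and 6.36% of all genes tested. Its likelihood ratio test called the same pair, beside 6.24% higher and 9.04% lower, and DESeq2 also called this pair, beside 3.28% and 3.35%. limma-voom called Tnnc2 alone, beside 3.75% higher and 0.535% lower. Without a filter, edgeR's quasi-likelihood test called Acta1 alone, beside 0.221% higher and 0.939% lower of 14057 genes. Without vehicle replicate 3, it called Acta1 and Tnnc2 higher and Tpm1, Tpm2, Tnnt1 and Tnnt3 lower, but it then called 22.1% of 2162 genes higher and 24.3% lower. Without both vehicle replicates 1 and 2, it called 0 of the set, beside 0.315% higher and 0.0524% lower of 1907 genes.

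The composition of the set within each library, which does not depend on scaling between libraries, is given as a description. Tnnc2 took 34.7%, 38.6% and 63.3% of the counts of the 10 genes in vehicle replicates 1 to 3 and 76.9%, 79.3% and 81.5% in E2 replicates 1 to 3. The E2 libraries were close to each other, at 79.3% ± 2.31, and the vehicle libraries were spread, at 45.5% ± 15.5 (SD, n = 3 per group). Vehicle replicate 3 lay between the other vehicle libraries and the E2 libraries. Tpm2 took 25.5%, 22.6% and 12.1% with vehicle and 7.76%, 5.61% and 3.12% with E2. Tnnt3 took 20.6%, 21.3% and 8.83% with vehicle and 6.37%, 4.295% and 4.75% with E2. Neither share overlapped between groups, and vehicle replicate 3 was again the vehicle library nearest to the E2 libraries. Acta1 took 0.993%, 1.44% and 3.51% with vehicle and 2.40%, 4.90% and 6.29% with E2. These shares sum to the whole in each library, so that the lower shares of the other genes are not independent of the share of Tnnc2.

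**Figure D3:**
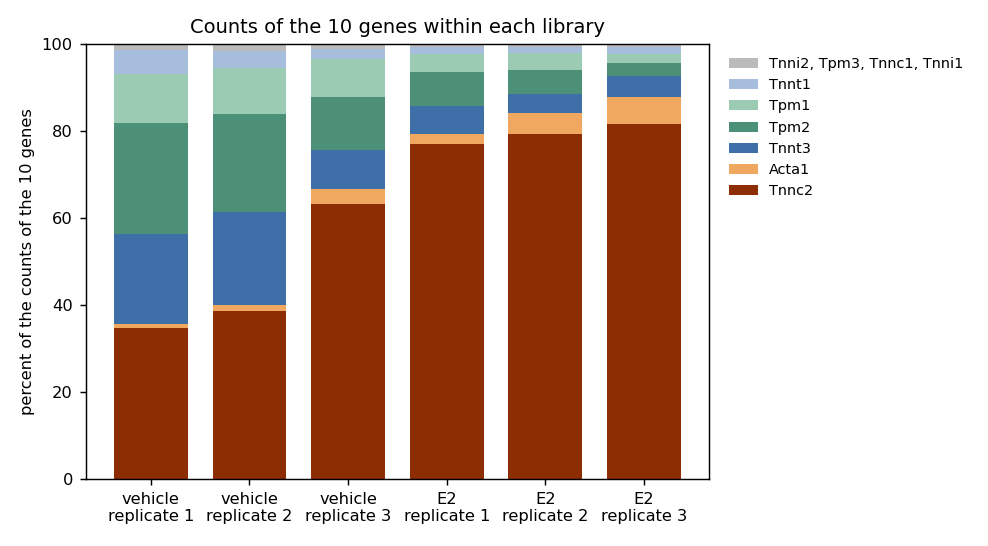
Stacked bars give the percent of the counts of the 10 genes that each gene took in each of the 6 libraries, with Tnni2, Tpm3, Tnnc1 and Tnni1 summed. The Tnnc2 segment at the bottom runs from 34.7% to 63.3% in the vehicle libraries and from 76.9% to 81.5% in the E2 libraries.

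Ratios of fast to slow genes were then taken within each library, to ask whether E2 went with a different balance of fast and slow isoforms. With 3 libraries against 3, the exact permutation test cannot give a p below 0.1, so that no ratio could pass 0.05. Tnnt3 to Tnnt1, the pair with ample counts on both sides, stood at 3.78, 5.41 and 3.98 with vehicle and at 3.68, 2.85 and 3.05 with E2. The share of the fast gene was 79.08%, 84.39% and 79.93% with vehicle, with exact Clopper-Pearson 95% intervals of 77.55 to 80.55, 83.14 to 85.58 and 74.94 to 84.32. With E2 it was 78.65%, 74.03% and 75.32%, with intervals of 74.55 to 82.37, 70.47 to 77.37 and 71.13 to 79.19. Each E2 library was below each vehicle library, although the interval of each E2 library overlapped that of vehicle replicate 3. The intervals of E2 replicates 1 and 3 also overlapped that of vehicle replicate 1. The mean log2 ratio was 2.11 ± 0.281 with vehicle and 1.66 ± 0.19 with E2 (SD, n = 3 per group). The difference was -0.45 (two-sided exact permutation p = 0.1, the smallest possible, and 0.2 after adjustment over the 4 ratios). Without both vehicle replicates 1 and 2 it was -0.32.

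Troponin C was fast almost throughout, with at least 99.94% of the summed Tnnc2 and Tnnc1 counts from Tnnc2 in every library. Tnnc1 was at or under 3 counts in all 6 libraries, so that no fold is given for this pair, for which the two-sided exact permutation test with 0.5 added to each count gave p = 0.1 (adjusted p = 0.2). With nothing added, in the libraries with a count of both genes, it gave an exact p of 0.2. Troponin I was fast in the same way, with all counts of the pair from Tnni2 in the 3 vehicle libraries and in E2 replicate 1, and 96.15% and 97.44% in E2 replicates 2 and 3. As Tnni1 was at or under 3 counts throughout, no fold is given for this pair either, for which the exact permutation test gave p = 0.2 (adjusted p = 0.2). With so few slow counts, the tests of these pairs cannot decide on the balance of isoforms, as each ratio rests mainly on the fast count.

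The ratio of Tpm1 to Tpm3 was 38.4, 26.0 and 34.3 with vehicle and 28.6, 20.8 and 9.06 with E2. E2 replicate 3 stood low and E2 replicate 1 lay among the vehicle libraries. The difference of mean log2 ratios was -0.90 (two-sided exact permutation p = 0.2, adjusted p = 0.2), and it was -0.43 without E2 replicate 3 and -0.92 without both vehicle replicates 1 and 2. Summed over the 3 troponin subunits, fast to slow counts stood at 10.3, 15.4 and 32.4 with vehicle and at 48.4, 54.5 and 54.9 with E2. In this sum, which ran opposite to the troponin T pair, Tnnc2 supplied most of the fast counts and Tnnt1 nearly all of the slow counts.

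**Figure D4:**
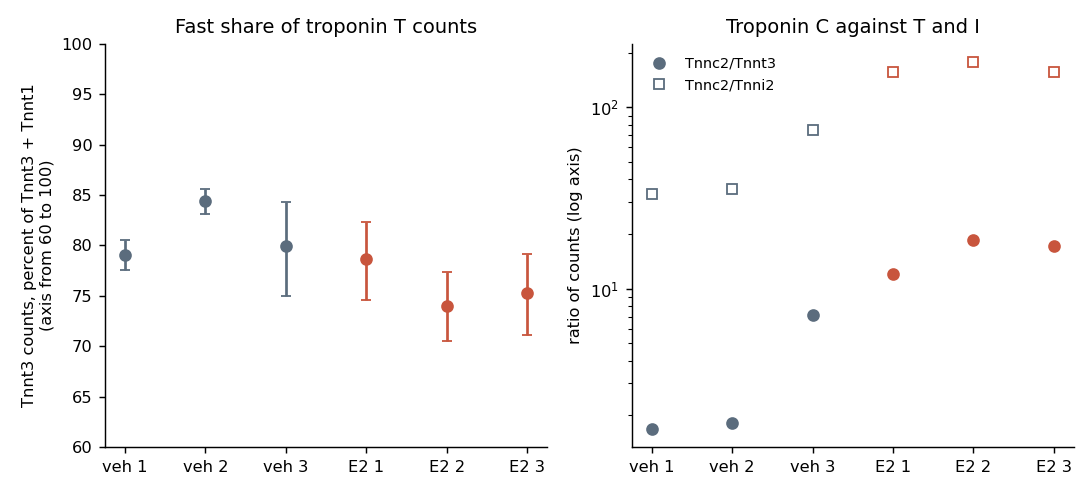
On the left, points are the percent of Tnnt3 and Tnnt1 counts that came from Tnnt3 in each library, with Clopper-Pearson 95% intervals as bars, on an axis that starts at 60. On the right, the count ratios of Tnnc2 to Tnnt3 and of Tnnc2 to Tnni2 are drawn on a log axis, and in both the E2 libraries lie above the vehicle libraries (12.1 to 18.5 against 1.69 to 7.17, and 156 to 177 against 33.4 to 74.5).

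The fast troponin genes were also set against each other, in ratios chosen after their values had been seen and therefore given without a test. Tnnc2 to Tnnt3 was 1.69, 1.81 and 7.17 with vehicle and 12.1, 18.5 and 17.2 with E2. Tnnc2 to Tnni2 was 33.4, 35.2 and 74.5 with vehicle and 156, 177 and 157 with E2. Both ratios were higher in every E2 library, with vehicle replicate 3 above the other vehicle libraries. Tnnt3 to Tnni2, the ratio without Tnnc2, overlapped between groups, at 19.8, 19.4 and 10.4 with vehicle and 13.0, 9.58 and 9.16 with E2. Acta1 to Tpm2 was 0.0389, 0.0638 and 0.289 with vehicle and 0.31, 0.872 and 2.01 with E2, without overlap. Tpm2 to Tpm1 overlapped, at 2.23, 2.14 and 1.37 with vehicle and 1.86, 1.5 and 1.58 with E2.

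The genes whose pattern over the 6 libraries was nearest to that of Tnnc2 were not thin filament genes. By the root mean square difference of centered log2 CPM, the nearest of 1674 other genes were Gm10094 (0.0785), Rpl36al (0.112), Sap18 (0.14), Srr (0.156) and Mroh8 (0.18). Within the set Acta1 was nearest, at 0.521, and Tpm2 was farthest, at 1.55. All of these distances were taken over the same 6 libraries. Gm10094, Rpl36al, Sap18, Srr and Mroh8 had at most 62, 75, 65, 87 and 15 counts in a library, against up to 8843 for Tnnc2. Gm10094 and Sap18 had similar counts in each library.

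Other genes of the pathway were compared in the same fit. Of 24 thin filament partners, which include other actins, tropomodulins, leiomodins, capping proteins and nebulin, 7 were tested and 0 passed at an adjusted p below 0.05 by edgeR's quasi-likelihood test. At an unadjusted p of 0.05 or less, 0 were higher and 1 was lower, beside 10.5% and 15.1% of all genes tested. The gene was Cfl2, an actin-severing cofilin named after its value was seen, at a log2 fold change of -1.17. The lower count of 1 was 0 without vehicle replicate 1, vehicle replicate 2, E2 replicate 1 or E2 replicate 3, and it was 2 without vehicle replicate 3 and 4 without a filter, while the higher count was 1 without vehicle replicate 3, E2 replicate 2 or both vehicle replicates 1 and 2. Neb, which encodes the giant protein nebulin along the thin filament, had a log2 fold change of -0.52 (adjusted p = 0.476 by edgeR), and -0.077 without both vehicle replicates 1 and 2. Nrap stood at -0.20 and Actb, a cytoplasmic actin, at 0.71 on the log2 scale. Actb stood at 0.365 without E2 replicate 3, at 1.09 without E2 replicate 2 and at 1.76 without both vehicle replicates 1 and 2. The median over the 7 genes was -0.0828.

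Of 15 fast fiber partners, all were tested and 0 passed at an adjusted p below 0.05 by edgeR's quasi-likelihood test. At an unadjusted p of 0.05 or less, 0 were higher and 3 were lower, beside 10.5% and 15.1% of all genes tested. The lower genes were Myh4 (log2 fold change -1.08), Mybpc2 (-1.02) and Casq1 (-1.002), of which Mybpc2 and Casq1 are named after their values were seen. Myh4, the myosin heavy chain of the fastest fibers, had an adjusted p of 0.148 by edgeR, and its log2 fold change was -0.54 without vehicle replicate 1 and -0.11 without both vehicle replicates 1 and 2. Without vehicle replicate 3 it was -1.30 (adjusted p = 0.00465 by edgeR). Actn3, the fast alpha-actinin, stood at -0.18, and Atp2a1, the fast calcium pump, stood at 0.24 on the log2 scale. The median over the 15 genes was -0.182, and 4 of them did not overlap between groups, all lower with E2, beside 12.8% of all genes tested. The count of 3 fast fiber partners was 0 when vehicle replicate 1 or any E2 library was left out, and 1 was higher without vehicle replicate 3.

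Of 14 slow fiber partners, 8 were tested and 0 passed at an adjusted p below 0.05 by edgeR's quasi-likelihood test. In neither direction did any reach an unadjusted p of 0.05, beside 10.5% higher and 15.1% lower of all genes tested. Without vehicle replicate 2, vehicle replicate 3 or E2 replicate 3, 1 was lower, and without both vehicle replicates 1 and 2, 1 was higher. Myh7, the slow myosin heavy chain, stood at -1.07 (adjusted p = 0.231 by edgeR). Leaving out vehicle replicate 1 gave -0.27, leaving out E2 replicate 3 gave -1.54, leaving out both vehicle replicates 1 and 2 gave -0.37, and without vehicle replicate 3 it was -1.21 (adjusted p = 0.0229 by edgeR). Mb, myoglobin, stood at -0.44 and Myl3, a slow light chain, at 0.39 on the log2 scale, and Myl3 stood at 0.097 without E2 replicate 3 and at 1.83 without both vehicle replicates 1 and 2. The median over the 8 genes was 0.0538.

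Markers of other cell types were summed in the same libraries. The cardiac isoform list of 4 genes, which includes Tnnt2 and Tnni3, summed to 0 to 93.5 CPM with vehicle and 7.94 to 39.8 CPM with E2, and Tnni3 was at 0 in all libraries. The 8 smooth muscle and pericyte genes summed to 141 to 696 CPM with vehicle and 227 to 239 CPM with E2. The 6 myogenic genes summed to 1144 to 4234 CPM with vehicle and 726 to 1811 CPM with E2, with Pax7 and Myog at 0, so that this sum lay mostly in Des. Fibroblast, immune and adipocyte sums overlapped between groups, at 517 to 648, 34.6 to 106 and 31.8 to 75.4 CPM over all 6 libraries. The part of these cells in the values of the set was not tested.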

How the data were processed

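TRAPseq libraries of gastrocnemius and soleus from mice given vehicle (3 libraries) or E2 (3 libraries) were compared, and groups were taken from the sample labels. Per the submitters' processing notes and the study's methods, the authors used bcl2fastq (2.17), FastQC (0.11.2), STAR (2.5.3a) for mapping to mm10, and featureCounts from Subread (1.6.0) for gene counts. The table the authors deposited holds raw, whole-number counts for each gene symbol. Its strand setting is not given in the sources used. The study's methods name a ribosome profiling kit, whereas polyA RNA and a stranded kit for total RNA stand in the labels.

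From the counts, E2 was compared with vehicle with edgeR (4.0.16) in R (4.3.3), using filterByExpr, TMM scaling, the quasi-likelihood test and Benjamini-Hochberg adjustment over 1682 genes. CPM used the whole total of a library. Fast-to-slow ratios were log2 values with 0.5 added to each count, compared by two-sided exact permutation tests with adjustment over 4 ratios. Alternatives were other filters (none, or a minimum of 10 counts in each library), other scalings, other tests (DESeq2 1.42.0, limma-voom of limma 3.58.1, the exact and the likelihood ratio test of edgeR), the replicate number as a block, and libraries left out. The main edgeR fit, and none of the alternatives, was tested on simulated data. Samples with the same number did not deviate together, so no block was used.

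Gene positions and exon lengths are from GENCODE M21 (mm10), and promoter windows are from RefSeq (GRCm38.p6), where 8 of the 10 genes matched. The 10 genes, the partner lists and the marker lists were chosen with earlier results of these data known. Named partners are those called at an adjusted p below 0.05 and the 3 with the most counts in each list. The nearest patterns are the 5 genes with the lowest root mean square difference to the gene of the set with the most counts, in log2 CPM with a prior count of 2. Intervals and floors cover counting error only.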

Additional observations from a re-analysis of the deposited data

How the results depend on the processing

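With all 6 libraries, 0 genes of the set were called higher and 0 lower. The number called higher was 1 without a filter and by limma-voom, 2 by edgeR's exact test, its likelihood ratio test and DESeq2, and 2 by the study's kind of threshold (an unadjusted p of 0.05 or less), under which 3 were called lower. Leaving out 1 library each gave 0 to 2 called higher and 0 to 4 called lower, and only the fit without vehicle replicate 3 called any (2 and 4), beside 22.1% and 24.3% of all genes tested in it. The number lower at an unadjusted p of 0.05 or less was 3, and it was 0 without vehicle replicate 1, without E2 replicate 2 or without E2 replicate 3. Without both vehicle replicates 1 and 2, the numbers at that threshold were 0 higher and 0 lower. Over the alternative fits, 16 or 17 for each of the 8 tested genes, 133 of 135 fold changes kept their sign. All of these fits drew on the same 6 libraries. The exceptions were Tpm3 (0.10) and Tnnt1 (0.12) without both vehicle replicates 1 and 2, a fit in which the 1 vehicle library left is assumed to vary like the E2 libraries. In that fit Nrap stood at 0.20, Atp2a1 at -0.016, Actn3 at 0.34 and Mb at 0.35, all reversed, and Nrap stood at 0.031 without E2 replicate 1 and Actn3 at 0.055 without E2 replicate 2. With 1 library left out, fold changes ranged from -0.30 (without vehicle replicate 2) to -0.077 (without E2 replicate 1) for Tpm3 and from -0.99 (without vehicle replicate 2) to -0.31 (without vehicle replicate 1) for Tnnt1. They ranged from -0.38 (without E2 replicate 3) for Nrap and from -0.28 (without vehicle replicate 3) for Actn3 to the reversed values above, from 0.059 (without vehicle replicate 2) to 0.49 (without vehicle replicate 3) for Atp2a1, and from -0.59 (without vehicle replicate 3) to -0.21 (without vehicle replicate 1) for Mb. The cause of these changes was not tested.

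With 1 library left out, the difference in log2 ratio ranged from -0.55 to -0.29 for Tnnt3 to Tnnt1 and from -1.23 to -0.43 for Tpm1 to Tpm3. The Tnnt3 to Tnnt1 difference was nearest to 0 without vehicle replicate 2. The log2 ratio of summed levels was 0.43, and 0.25 to 0.57 with 1 library left out, lowest without E2 replicate 2. Scaling by library totals moved the median of all genes by -0.165 on the log2 scale. With the replicate number as a block, 0 genes were called either way, with Acta1 at 1.84 (adjusted p = 0.104 by edgeR) and Tnnc2 at 1.40 (adjusted p = 0.0611 by edgeR), and 1 fast fiber partner in place of 3 and 0 thin filament partners in place of 1 were lower at an unadjusted p of 0.05 or less. By DESeq2, by limma-voom and with at least 10 counts in every library, 0 thin filament partners were lower at that threshold, by limma-voom, the likelihood ratio test and without a filter 1 was higher, and by library totals and without a filter 1 slow fiber partner was lower. The deviations of same-numbered libraries correlated at -0.126, 0.026 and -0.197 across genes, so the numbers were not taken to pair the samples. Depth limits Tnnc1 and Tnni1, which were at or under 3 counts in every library.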
